A study of Mus musculus with 60 samples.

Results

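The comparison described here set liver of Glp1rfl/fl mice given mGIPR-Ab/P1 against liver of Glp1rfl/fl mice given vehicle, with 5 RNA sequencing libraries in each group. These are 10 of the 60 libraries of the series and 10 of the 15 in their table, and the other 5 of the table came from Glp1rWnt1-/- mice given vehicle. The agent mGIPR-Ab/P1, called the conjugate below, is an antibody against the receptor of the gut hormone GIP joined to a GLP-1 peptide. The series is titled for the question whether receptors of both hormones in the central nervous system are needed for the weight loss it causes in obese mice. All animals were diet-induced obese, and the mice of both groups carried the floxed Glp1r allele, which is flanked by recombination sites and is not deleted unless a Cre recombinase acts on it. The sources used here give neither the age and sex of the animals nor the dose and length of treatment, and they do not say which Cre driver made the knockout. The labels call the libraries biological replicates without naming animals, so p-values measure the spread between these samples. Genes were taken into the test when at least 5 of the 15 libraries of the table reached 1 FPKM, a level scaled to transcript length and library size. That left 10858 of 54343 listed symbols.

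Both receptors addressed by the conjugate are G protein-coupled and are best known from pancreatic islets and brain, and hepatocytes are generally held to carry little of either. The liver receives their effects through food intake, insulin, glucagon and the supply of fatty acids. It makes cholesterol and fatty acids under the transcription factors SREBP-2 and SREBP-1c. It stores surplus lipid in droplets, exports it on lipoproteins and turns cholesterol into bile acids. It also carries a sex-dependent expression programme set by the rhythm of growth hormone secretion, and it secretes hepcidin, the hormone that limits iron entry into blood.

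In these livers Glp1r lay at 0.0053 to 0.0171 FPKM with the conjugate and 0.0156 to 0.0237 FPKM with vehicle, far below the level needed for a test. Gipr, and Wnt1, whose name the knockout carries, were listed at 0 in all 10 libraries. Gcgr, the glucagon receptor gene, had 108, 124, 121, 125 and 129 FPKM in conjugate libraries 1 to 5, against 105, 102, 108, 116 and 109.5 FPKM in vehicle libraries 1 to 5. Its groups overlapped and it did not pass, with a log2 fold change of 0.16 ± 0.05 and an adjusted p of 0.0608. No deletion is labelled in either group and Glp1r is close to 0 in liver, so these values check no genotype.

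The libraries differed in depth along with the treatment. Depth, estimated from the smallest values, was 31.7 to 35.5 M fragments with the conjugate and 47.5 to 54.8 M fragments with vehicle (M, mega), without overlap (exact permutation p = 0.00794, adjusted over 4 library measures 0.0159, two-sided). The share of summed FPKM from mitochondrial transcripts was also lower, at 10.5% to 11.8% with the conjugate against 12.05% to 14.3% with vehicle, with the same p values. The effect of the treatment and that of depth cannot be told apart in these libraries, and when depth was added to the limma model no gene passed (1297 had an unadjusted p under 0.05). With that term the standard errors of the 1126 genes called without it were 3.12 times as large by their median, their log2 fold changes 1.05 times as large, and 1008 kept their sign. Correlations between libraries ran from 0.974 to 0.995 and no libraries held identical values. Hepatocyte markers were high in both groups, with 11 markers summing to 51074 to 69533 FPKM with the conjugate and 49514 to 67645 FPKM with vehicle. Markers of pancreas summed to at most 37.2 FPKM, with Cpb1, Prss2, Try4, Try5 and Clps at 0 throughout.

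**Figure D1:**
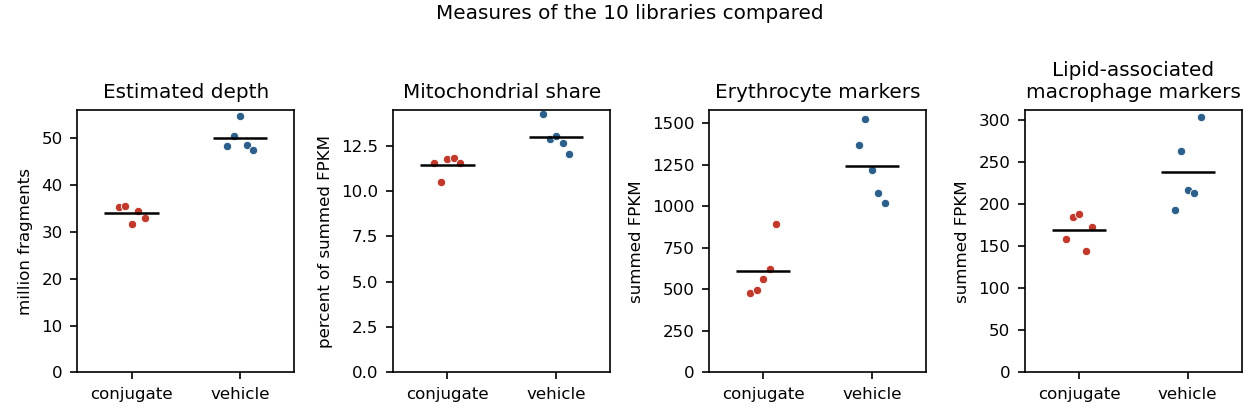
Estimated depth, mitochondrial share of summed FPKM, summed FPKM of 8 erythrocyte markers and summed FPKM of 10 markers of lipid-associated macrophages in each library of Glp1r floxed liver. Points are libraries, black lines are means of 5, and in each of the 4 panels all conjugate libraries lie below all vehicle libraries. Most of the macrophage sum is Ctsd, and the other 9 markers overlap, at 26.9 to 62.1 FPKM with the conjugate and 56.3 to 114 FPKM with vehicle.

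Across the liver transcriptome 617 genes rose with the conjugate, 5.68% of the genes tested, and 509 fell, 4.69%, so that 10.4% passed in either direction (limma, Benjamini-Hochberg adjusted p under 0.05). Most changes were small. The median log2 fold change, always conjugate over vehicle on log2(FPKM + 1), was 0.27 among the genes that rose and -0.39 among those that fell, beside 0.01 over all genes. Of 200 called genes that changed at least 1.5-fold, 69 changed at least 2-fold, and of these 14 rose and 55 fell. For 994 genes, 9.15%, all 5 conjugate libraries lay on one side of all 5 vehicle libraries, and 757 of them were called. The balance of rises and falls depended on scaling: with all libraries set to a common sum, 336 genes rose and 469 fell, and with a median-of-ratios scaling 604 rose and 707 fell, although no called gene changed sign under any of the 3 scalings tried. Left-out libraries moved the total between 479, without vehicle replicate 2, and 1395, without conjugate replicate 2.

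Among 32 lists of liver genes, enzymes of cholesterol synthesis had the largest share of falls (13 of 18), followed by fatty acid synthesis (10 of 21) and by triglyceride synthesis and lipid droplets (9 of 27). Genes known for male-biased expression had the largest share of rises (9 of 27). Of 19 clock genes, 17 heat shock chaperones, 27 interferon-stimulated genes and 4 incretin and glucagon receptor genes tested, none passed in limma, while 5, 3, 7 and 1 had an unadjusted p under 0.05 and the list medians were 0.23, 0.03, -0.24 and 0.11. Over all 10858 genes tested, 2931 had an unadjusted p under 0.05. Leaving out conjugate replicate 2 brought 5 clock genes and 1 chaperone past the threshold, leaving out conjugate replicate 4 brought 2 interferon-stimulated genes past it, and leaving out conjugate replicate 1 brought 1 receptor gene past it.

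**Figure D2:**
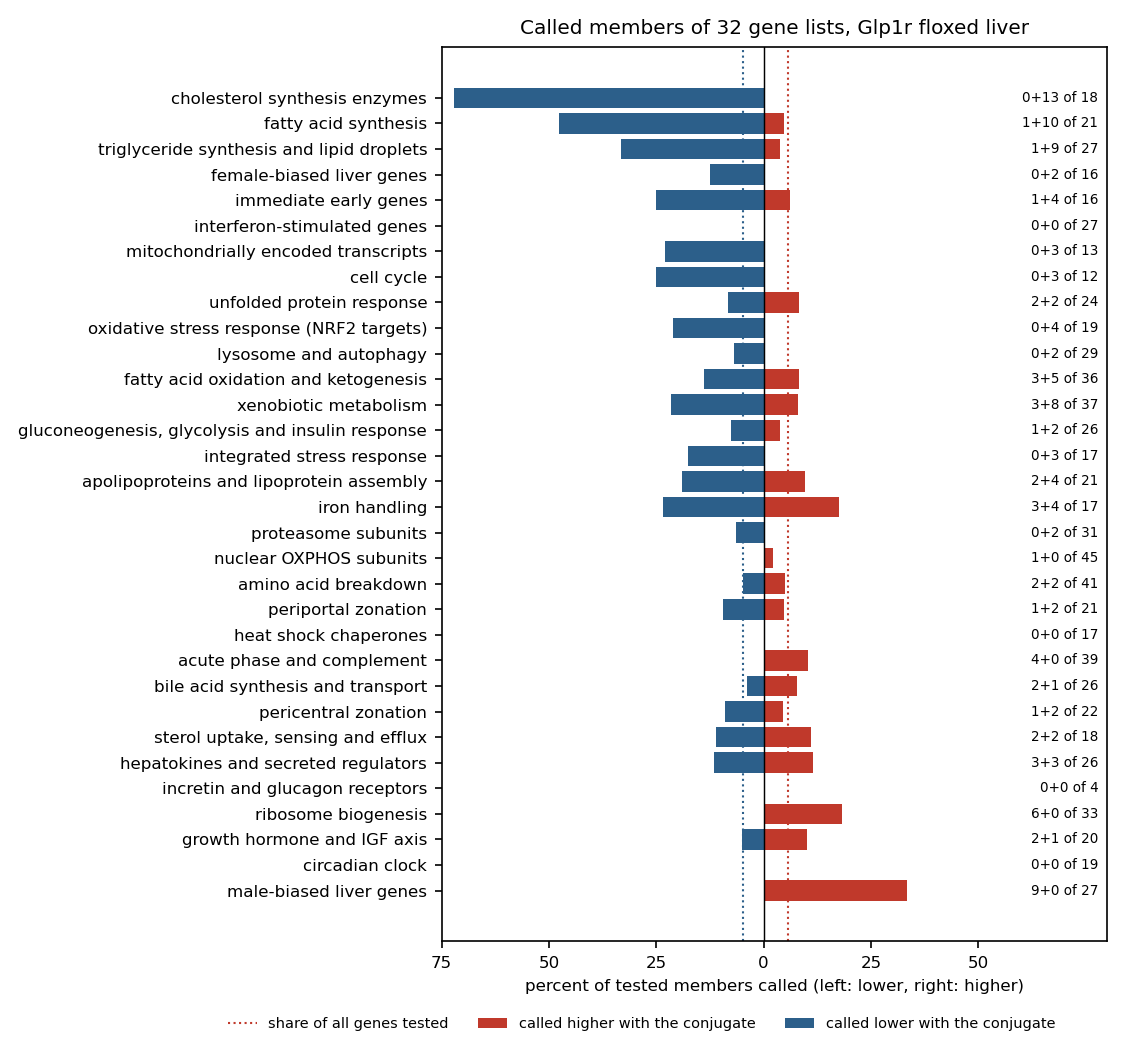
Share of the tested members of each of 32 gene lists called lower (blue, to the left) or higher (red, to the right) with the conjugate, ordered by the median log2 fold change of the list with the lowest at the top. The numbers at the right give members higher plus members lower of those tested, and the dotted lines mark the shares over all genes tested, 4.69% lower and 5.68% higher. Cholesterol synthesis stands out to the left with 13 of 18 and male-biased genes to the right with 9 of 27.

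Cholesterol is built from acetyl-CoA in a chain of reactions whose genes share control by SREBP-2, which is released from the endoplasmic reticulum when sterols are scarce. Of the 18 enzymes on the list all were tested, 13 fell, none rose and 5 did not pass, with a median log2 fold change of -0.97 beside 0.01 for all genes. Of the 18, 17 had a negative value, the exception being Ebp, the sterol isomerase, at 0.02 ± 0.06. For 13 of the 18 the groups did not overlap.

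In the early steps, Acat2, which joins acetyl-CoA units, had 20.4, 32.6, 21.6, 19.2 and 29.6 FPKM in conjugate libraries 1 to 5, against 42.98, 49.9, 36.9, 42.2 and 38.9 FPKM in vehicle libraries 1 to 5. Hmgcs1, the cytosolic HMG-CoA synthase, had 16.9, 67.04, 33.8, 24.9 and 45.6 FPKM with the conjugate and 113, 114, 70.04, 85.4 and 85.4 FPKM with vehicle. Every conjugate library lay below every vehicle library for both genes, and the log2 fold changes were -0.77 ± 0.17 and -1.42 ± 0.31 (adjusted p = 0.0126 and 0.0128).

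Hmgcs1 is a textbook target of SREBP-2, and the RefSeq window of its promoter (build GRCm38.p6, chr13:119690101-119690400, plus strand) is shown because it was the one window among those found for the sterol enzymes that holds a full sterol element. The window runs from 250 bases before the annotated start to 50 bases after it, and the element searched on both strands was TCACNCCAC, in capitals, whose first base lies at -137.
Hmgcs1: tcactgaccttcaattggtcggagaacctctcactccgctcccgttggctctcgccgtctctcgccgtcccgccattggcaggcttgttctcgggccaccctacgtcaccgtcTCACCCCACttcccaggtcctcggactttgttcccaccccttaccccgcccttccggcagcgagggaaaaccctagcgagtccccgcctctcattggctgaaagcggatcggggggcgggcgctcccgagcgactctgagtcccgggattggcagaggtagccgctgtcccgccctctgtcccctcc
Windows were found for 15 of the 18 enzymes, and 1 of 15 held the element, beside 1.44% of 27018 windows of all genes and 1.59% of those of the genes tested. With the last letter left free, Msmo1 was added, at 2 of 15 beside 4.97% of all windows. A match describes letters in the window and says nothing of binding.

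Mevalonate is then phosphorylated and decarboxylated to isoprenoid units. Mvd, the decarboxylase, had 1.43, 5.76, 2.17, 2.41 and 4.99 FPKM with the conjugate and 10.1, 15.3, 8.38, 10.3 and 8.42 FPKM with vehicle, without overlap and with a log2 fold change of -1.48 ± 0.30 (adjusted p = 0.00976). Mvk, mevalonate kinase, passed narrowly at -0.57 ± 0.17 (adjusted p = 0.0455), and Pmvk, the next kinase, narrowly did not at -0.78 ± 0.24 (adjusted p = 0.0529). Idi1, the isomerase of these units, had 8.33, 23.8, 13.1, 13.6 and 35.96 FPKM in conjugate libraries, against 62.5, 41.8, 30.04, 41.999 and 29.1 FPKM in vehicle libraries. It overlapped through conjugate replicate 5 and did not pass, at -1.19 ± 0.39 (adjusted p = 0.0653). Fdps, which makes farnesyl diphosphate, had 42.4, 125, 61.7, 63.4 and 109 FPKM with the conjugate and 228, 187, 174, 191 and 152 FPKM with vehicle. All 5 conjugate libraries were lower, and it fell with a log2 fold change of -1.30 ± 0.30 (adjusted p = 0.0158).

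Squalene formation and epoxidation commit the chain to sterols. Fdft1, squalene synthase, had groups that did not overlap but did not pass, at -0.57 ± 0.20 (adjusted p = 0.0808). Sqle, squalene epoxidase, changed most of the list, with 1.09, 6.23, 1.22, 1.38 and 7.64 FPKM in conjugate libraries 1 to 5, against 25.6, 19.2, 8.83, 17.6 and 12.7 FPKM in vehicle libraries 1 to 5. The conjugate libraries split into 3 near 1 FPKM and 2, replicates 2 and 5, above 6 FPKM, and all stayed below the lowest vehicle library. Its log2 fold change of -2.18 ± 0.50 passed with an adjusted p of 0.0161 and kept passing with any 1 of the 10 libraries left out.

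Past lanosterol, Msmo1, the C4 methyl oxidase, had 14.3, 36.5, 21.2, 20.4 and 40.3 FPKM with the conjugate and 89.6, 70.8, 47.7, 62.99 and 53.2 FPKM with vehicle. Dhcr7, which makes cholesterol from its last precursor, had 8.17, 18.4, 9.85, 13.4 and 16.3 FPKM with the conjugate and 29.6, 36.7, 25.7, 29.3 and 24.8 FPKM with vehicle. Neither overlapped, and their log2 fold changes were -1.32 ± 0.30 and -1.13 ± 0.22 (adjusted p = 0.0146 and 0.00834). Cyp51, the lanosterol demethylase, fell too, at -1.13 ± 0.31 (adjusted p = 0.0352), as did Nsdhl, a C4 decarboxylase, at -1.13 ± 0.30 (adjusted p = 0.0323). Hsd17b7, Sc5d and Lss, which encode further sterol enzymes, fell, with log2 fold changes of -0.81, -0.67 and -0.64 (adjusted p = 0.0117, 0.0152 and 0.0354). Tm7sf2, a sterol reductase, did not pass, at -0.48 ± 0.19 (adjusted p = 0.115).

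Certain libraries were repeatedly at the ends of their group across these enzymes. Among the 13 that fell, conjugate replicate 1 was the lowest of its group for 10, and the highest was replicate 2 for 8 and replicate 5 for 5. On the vehicle side, replicate 1 was the highest for 7 and replicate 2 for the other 6. The summed level of the 18 enzymes was 396, 761, 499.9, 472 and 666 FPKM in conjugate libraries 1 to 5, against 1164, 1081, 853, 957 and 876 FPKM in vehicle libraries 1 to 5, so the groups did not overlap. The number called was 9 when conjugate replicate 1, 3 or 4 or vehicle replicate 1, 2 or 4 was left out.

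**Figure D3:**
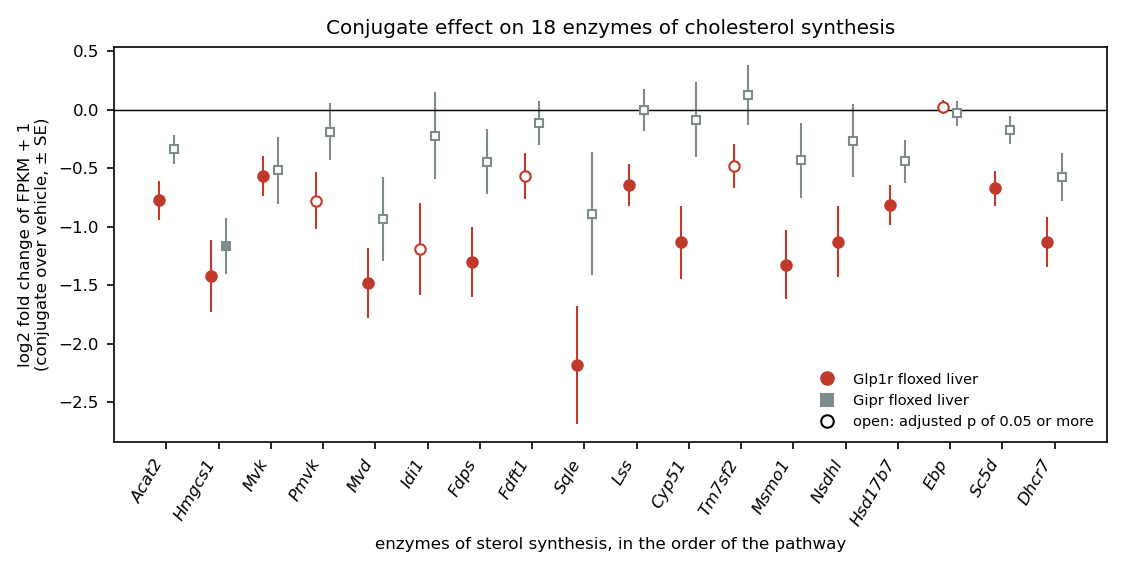
Log2 fold change of FPKM + 1, conjugate over vehicle, with its standard error for 18 enzymes of cholesterol synthesis in pathway order, in Glp1r floxed liver (red circles) and in Gipr floxed liver (grey squares), with open symbols where the adjusted p was 0.05 or more. In Glp1r floxed liver 13 symbols are filled and Sqle is lowest at -2.18, and in Gipr floxed liver Hmgcs1 is the filled one.

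Around the pathway, the sensing and uptake genes moved less. Of 19 genes for sterol uptake, sensing and efflux, 18 were tested, 2 rose and 2 fell. Insig2, which holds SREBP in the endoplasmic reticulum, had 28.3, 110.4, 45.8, 43.5 and 51.7 FPKM with the conjugate and 82.6, 135, 105, 103 and 118 FPKM with vehicle. Conjugate replicate 2 lay within the vehicle range and the other 4 lay below it, at a log2 fold change of -1.08 ± 0.26 (adjusted p = 0.0211). Srebf2, the gene of SREBP-2 itself, fell at -0.36 ± 0.09, whereas Lcat, which esterifies cholesterol in plasma, rose at 0.27 ± 0.08 and Nr1h3, the oxysterol receptor LXR alpha, at 0.15 ± 0.05 (adjusted p = 0.0289, 0.0373 and 0.0493). None of the 4 genes passed when conjugate replicate 1 or vehicle replicate 2 was left out, omissions that cut the calls over all genes from 1126 to 574 and 479. Over the 10 omissions Insig2 passed in 8, Srebf2 in 6, Lcat in 3 and Nr1h3 in 1.

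Fatty acid synthesis genes are driven by SREBP-1c and by the glucose-responsive factor ChREBP. Of 23 on the list 21 were tested, 10 fell and 1 rose, with a median log2 fold change of -0.69. Acacb, the acetyl-CoA carboxylase at mitochondria, had 6.21, 13.3, 4.74, 8.45 and 6.68 FPKM in conjugate libraries 1 to 5, against 14.8, 27.7, 16.7, 18.4 and 19.2 FPKM in vehicle libraries 1 to 5. Acss2, which makes acetyl-CoA from acetate, had 24.2, 50.8, 22.4, 25.4 and 29.6 FPKM with the conjugate and 74.02, 75.7, 54.8, 57.7 and 52.2 FPKM with vehicle. The groups stood apart for both, and the log2 fold changes were -1.24 ± 0.25 and -1.07 ± 0.22 (adjusted p = 0.0103 and 0.0102).

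Elovl5, an elongase of polyunsaturated fatty acids, had 108, 384, 195, 137 and 212 FPKM with the conjugate and 381, 493, 420.5, 359.6 and 404 FPKM with vehicle. Conjugate replicate 2 reached into the vehicle range, and the log2 fold change was -1.12 ± 0.25 (adjusted p = 0.0148). Fads2, the delta-6 desaturase, and Fads1, the delta-5 desaturase, fell at -0.84 ± 0.19 and -0.66 ± 0.16 (adjusted p = 0.0148 and 0.0195), both without overlap. Thrsp, a lipogenic nuclear protein, fell at -0.85 ± 0.17, and Acly, which makes acetyl-CoA from citrate, at -0.77 ± 0.17 (adjusted p = 0.00976 and 0.0134).

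The central lipogenic enzymes had negative values that did not pass. Fasn, fatty acid synthase, had 23.8, 68.3, 40.2, 45.4 and 48.5 FPKM with the conjugate and 47.7, 123, 67.4, 73.97 and 73.6 FPKM with vehicle, with overlap and a log2 fold change of -0.77 ± 0.26 (adjusted p = 0.0758). Scd1, the stearoyl-CoA desaturase, ranged widely within the conjugate group, with 907, 2381, 1733, 355 and 893 FPKM, against 1798, 3167, 2912, 1507 and 1745 FPKM in vehicle libraries, and stood at -1.04 ± 0.39 (adjusted p = 0.101). The regulators went the other way by their means. Srebf1, the gene of SREBP-1, was at 0.30 ± 0.14 and did not pass (adjusted p = 0.187). Mlxipl, the gene of ChREBP, rose, with 102, 98.7, 109, 122 and 122 FPKM in conjugate libraries, against 70.7, 77.1, 72.9, 81.2 and 81.8 FPKM in vehicle libraries, no overlap and a log2 fold change of 0.52 ± 0.08 (adjusted p = 0.00396). Among the 10 genes that fell, conjugate replicate 2 was the highest of its group for 8 and vehicle replicate 2 for 9. The count of called genes ran from 8 to 15 over the omissions.

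Genes that build and coat the triglyceride droplet leaned the same way. Of 27 tested, 9 fell and 1 rose, 26 had a negative value and the median log2 fold change was -0.43. Cidec, a protein of droplet fusion, had 2.17, 11.2, 14.6, 5.94 and 29.3 FPKM in conjugate libraries 1 to 5, against 29.7, 32.5, 55.4, 50.5 and 54.9 FPKM in vehicle libraries 1 to 5. The ranges touched without crossing, since conjugate replicate 5 at 29.3 FPKM sat just under vehicle replicate 1 at 29.7 FPKM. Its log2 fold change of -2.07 ± 0.62 passed with an adjusted p of 0.0448, and it passed in 1 of the 10 omissions, with values from -2.46 to -1.64.

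Cd36, a fatty acid transporter, had 30.8, 40.7, 37.5, 29.5 and 35.7 FPKM with the conjugate and 52.5, 84.01, 66.2, 76.5 and 96.3 FPKM with vehicle. The groups were well apart, and the fall of -1.07 ± 0.21 on the log2 scale (adjusted p = 0.00869) passed in all 10 omissions. Plin2, the main droplet coat protein of hepatocytes, had 130.1 to 306 FPKM with the conjugate and 300.4 to 414 FPKM with vehicle, and Plin4, another coat protein, had 7.80 to 15.9 FPKM with the conjugate and 16.5 to 23.4 FPKM with vehicle. They fell at -0.79 ± 0.20 and -0.71 ± 0.19 (adjusted p = 0.0234 and 0.0277), and Mogat1, a monoacylglycerol acyltransferase, fell at -1.24 ± 0.34 (adjusted p = 0.0347). The one member that rose was Dgat2, which adds the last acyl chain, with 226 to 304 FPKM under the conjugate and 207 to 218 FPKM under vehicle, at 0.26 ± 0.07 (adjusted p = 0.0352).

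Single libraries moved the droplet count: 2 members were called without conjugate replicate 1 or vehicle replicate 2 or 3, 3 without conjugate replicate 4, and 4 without conjugate replicate 3 or vehicle replicate 4 or 5. Of 10 markers of lipid-associated macrophages 8 were tested and 1 passed, 12.5% beside 10.4% of all genes. All 8 had a negative value, with a median log2 fold change of -0.43. The called marker was Ctsd, a lysosomal protease that hepatocytes also express, which fell. The list summed to 145 to 189 FPKM with the conjugate and 194 to 304 FPKM with vehicle, without overlap, but Ctsd made up most of this sum, at 118 to 129 FPKM with the conjugate and 134 to 189.7 FPKM with vehicle. The other 9 markers, summed apart after these values were seen, came to 26.9 to 62.1 FPKM with the conjugate and 56.3 to 114 FPKM with vehicle and overlapped. The defining marker Trem2 was low in both groups, at 0.537 to 1.81 FPKM with the conjugate and 0.603 to 2.46 FPKM with vehicle. Of 8 adipocyte markers 3 were tested and none passed in limma (3 with an unadjusted p under 0.05, beside 2931 of 10858 genes tested). The 8 markers summed to 1097 to 1505 FPKM with the conjugate and 1460.04 to 1956 FPKM with vehicle, and Lep, the leptin gene, was at 0. The list includes Car3, and the part of each marker in this sum was not separated, so the sum does not measure fat tissue. The part of either cell type in the result was not tested, and in bulk tissue fewer cells of a type and less RNA per cell cannot be told apart.

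**Figure D4:**
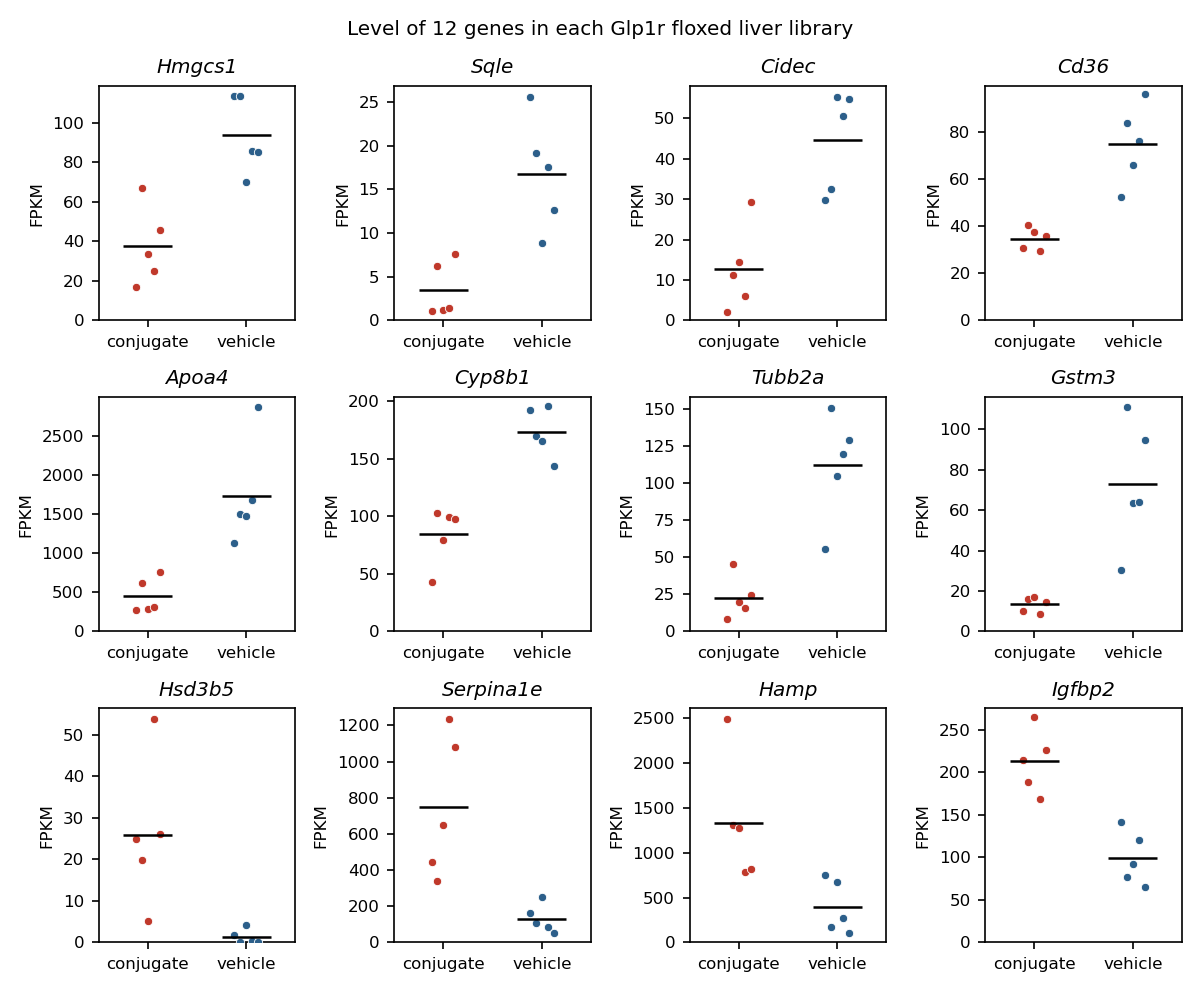
FPKM of 12 genes in each library of Glp1r floxed liver, conjugate in red and vehicle in blue, with the mean of 5 as a black line and each vertical axis starting at 0. The first 8 genes fell and the last 4 rose, and for all 12 the libraries of the groups do not overlap.

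Fatty acid oxidation, the mitochondrial and peroxisomal burning of fat under the receptor PPAR alpha, changed in both directions. Of 36 genes tested, 5 fell and 3 rose, with a median log2 fold change of -0.10. Pdk4, which blocks glucose oxidation, had 0.65, 1.25, 1.05, 0.501 and 0.845 FPKM with the conjugate and 2.55, 3.44, 1.99, 2.61 and 4.30 FPKM with vehicle, apart throughout and at a log2 fold change of -1.08 ± 0.17 (adjusted p = 0.00419). Fgf21, a fasting and stress hormone of the liver, had 1.40, 4.95, 2.71, 1.90 and 4.11 FPKM with the conjugate and 10.3, 5.35, 7.19, 7.94 and 9.06 FPKM with vehicle and fell at -1.21 ± 0.25 (adjusted p = 0.0113). Cpt1a, the gate of fatty acids into mitochondria, had 102 to 112 FPKM with the conjugate and 124 to 145 FPKM with vehicle, a small fall of -0.34 ± 0.07 on the log2 scale (adjusted p = 0.00834). Crat, carnitine acetyltransferase, fell at -0.53 ± 0.15 (adjusted p = 0.0356). Among the rises were Acot1, a cytosolic thioesterase, at 0.62 ± 0.19, and Eci2, a peroxisomal isomerase, at 0.28 ± 0.05 (adjusted p = 0.0449 and 0.00834). Between 4 and 9 of these genes were called over the omissions, with 4 without vehicle replicate 2 or 3 and 5 without conjugate replicate 1 or 4 or vehicle replicate 4 or 5.

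Mitochondrially encoded transcripts leaned lower, beside the lower mitochondrial share given above. Of 13 tested, 12 had a negative value and 3 fell: mt-Nd3, a complex I subunit, at -0.47 ± 0.12, mt-Atp6, of the ATP synthase, at -0.35 ± 0.10, and mt-Cytb, of complex III, at -0.26 ± 0.07 (adjusted p = 0.0269, 0.0377 and 0.0342). None passed without conjugate replicate 1 or 3 or vehicle replicate 1, and 1 passed without vehicle replicate 2, 4 or 5. Of 45 nuclear genes for subunits of the same complexes 1 rose, Ndufb10 at 0.21 ± 0.05 (adjusted p = 0.0277), and the median was 0.01. Its call was lost in 6 omissions.

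Lipoprotein genes gave some of the widest separations. Of 21 tested, 4 fell and 2 rose. Apoa4, an apolipoprotein of triglyceride-rich particles that is high in fatty liver, had 279, 621, 285, 311 and 765 FPKM in conjugate libraries 1 to 5, against 1127, 1505, 1473, 1678 and 2867 FPKM in vehicle libraries 1 to 5. The highest conjugate library stayed below the lowest vehicle library, and the log2 fold change was -1.997 ± 0.40 (adjusted p = 0.00962). Pltp, the phospholipid transfer protein, had 11.5, 20.7, 14.1, 10.3 and 18.3 FPKM with the conjugate and 31.7, 49.3, 38.98, 46.7 and 37.8 FPKM with vehicle. It also separated fully, at -1.42 ± 0.23 (adjusted p = 0.00458). Apoc2, the activator of lipoprotein lipase, fell at -0.64 ± 0.16, and Apob, the core protein of very low density lipoprotein, at -0.31 ± 0.07, while Apom, a carrier on HDL, rose at 0.46 ± 0.10 and Lipc, hepatic lipase, at 0.44 ± 0.10 (adjusted p between 0.0117 and 0.0211). Between 5 and 6 of these were called in each omission.

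In bile acid synthesis and transport, 1 of 26 genes tested fell and 2 rose, a share of 11.5% near the 10.4% of all genes. Cyp8b1, whose 12-alpha-hydroxylation sets the share of cholic acid, had 42.9, 103, 79.4, 99.8 and 97.4 FPKM with the conjugate and 192, 169, 165, 196 and 144 FPKM with vehicle. Conjugate replicate 1 was lowest at 42.9 FPKM, the other 4 lay between 79.4 and 103 FPKM, and none reached the vehicle range (-1.08 ± 0.24, adjusted p = 0.0137). Cyp7b1, of the alternative pathway, rose, with 40.9, 39.98, 32.4, 55.4 and 53.8 FPKM under the conjugate and 27.8, 31.9, 29.4, 31.4 and 26.95 FPKM under vehicle (0.55 ± 0.15, adjusted p = 0.0324), but passed in 2 of 10 omissions. Cyp7a1, the rate-limiting enzyme of the classical pathway, ranged from 6.42 to 27.2 FPKM with the conjugate and from 2.38 to 21.9 FPKM with vehicle and did not pass (0.71 ± 0.46, adjusted p = 0.344). Without conjugate replicate 2 the list had 6 called genes, and without conjugate replicate 1, 4 or 5 or vehicle replicate 2 or 4 it had 1.

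Of 26 genes of glucose handling tested, 2 fell and 1 rose, a share of 11.5% near the 10.4% of all genes, and 1 was called without conjugate replicate 4 or vehicle replicate 4. Pck1 and G6pc, the enzymes that open and close gluconeogenesis, stood at -0.28 ± 0.20 and -0.13 ± 0.27 and did not pass (adjusted p = 0.389 and 0.794). Pfkfb1, which sets fructose 2,6-bisphosphate, fell at -0.31 ± 0.08 (adjusted p = 0.0236). The insulin-like growth factor binding proteins went in opposite directions. Igfbp1, which insulin represses, had 5.15, 9.84, 10.8, 4.50 and 7.68 FPKM with the conjugate and 14.7, 24.4, 11.1, 20.03 and 14.5 FPKM with vehicle, and Igfbp2, which leptin is known to raise, had 215, 188, 266, 169 and 227 FPKM with the conjugate and 141, 77.3, 91.9, 121 and 65.4 FPKM with vehicle. Neither overlapped, with a fall of -1.08 ± 0.28 for Igfbp1 and a rise of 1.13 ± 0.18 for Igfbp2 on the log2 scale (adjusted p = 0.0269 and 0.0045). Igfbp2 passed in all 10 omissions and Igfbp1 in 6.

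Amino acid breakdown showed 2 rises and 2 falls among 41 genes tested, 9.76% beside 10.4% for all genes, with 2 called without conjugate replicate 4 or 5 or vehicle replicate 2. Nags, which makes the activator of the urea cycle, had 33.5, 28.9, 27.4, 27.2 and 28.3 FPKM with the conjugate and 23.9, 23.7, 23.2, 25.3 and 25.1 FPKM with vehicle. Its groups did not overlap (0.25 ± 0.06, adjusted p = 0.0152). Prodh2, a hydroxyproline dehydrogenase, rose at 0.25 ± 0.07, while Agxt2, a mitochondrial aminotransferase, fell at -0.39 ± 0.07 and Gpt2, an alanine aminotransferase, at -0.21 ± 0.06 (adjusted p = 0.0325, 0.00657 and 0.0416). Bhmt, betaine-homocysteine methyltransferase of the methionine cycle, was picked out after its values were seen and had 739.9, 1066, 599, 1009 and 735 FPKM with the conjugate and 1632, 1135, 1449, 1587 and 1287 FPKM with vehicle. Its groups did not overlap (-0.79 ± 0.16, adjusted p = 0.00869).

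The sex-dependent programme of mouse liver follows the pulsatile growth hormone secretion of males through STAT5b. Of 27 male-biased genes tested 9 rose, none fell, 24 had a positive value and the median log2 fold change was 0.58. Hsd3b5, a 3-keto steroid reductase of male liver, had 24.9, 19.9, 5.06, 53.7 and 25.98 FPKM in conjugate libraries 1 to 5, against 1.80, 0.0419, 4.19, 0.277 and 0.0593 FPKM in vehicle libraries 1 to 5. All vehicle libraries were below the lowest conjugate library, replicate 3, and the log2 fold change of 3.57 ± 0.77 (adjusted p = 0.0126) passed in all 10 omissions.

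Slco1a1, an organic anion transporter, had 55.03, 59.4, 33.6, 71.3 and 71.6 FPKM with the conjugate and 29.8, 14.6, 33.99, 13.7 and 2.55 FPKM with vehicle. It overlapped by a small margin, since conjugate replicate 3 at 33.6 FPKM lay under vehicle replicate 3 at 34.0 FPKM, and its log2 fold change was 1.89 ± 0.50 (adjusted p = 0.0296). C8b, a subunit of the complement membrane attack complex, had 67.1, 45.4, 54.2, 92.5 and 66.6 FPKM with the conjugate and 29.97, 24.3, 29.8, 23.7 and 24.1 FPKM with vehicle, without overlap and at 1.24 ± 0.21 (adjusted p = 0.00551). Keg1, an acyltransferase-like gene, rose at 0.82 ± 0.20, and Cyp2d9, a steroid hydroxylase, at 0.66 ± 0.17 (adjusted p = 0.0197 and 0.0255).

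Members of the major urinary protein and serpin families rose as well, but their copies are so alike that reads may be shared, so the member is uncertain. Serpina1e, of the alpha-1 antitrypsin cluster, had 445, 338, 647, 1237 and 1080.4 FPKM with the conjugate and 160.1, 106, 251, 85.3 and 53.6 FPKM with vehicle, without overlap (2.53 ± 0.47, adjusted p = 0.00772). The far more abundant Serpina1c and Serpina1a rose by less, at 0.72 ± 0.15 and 0.40 ± 0.08 (adjusted p = 0.0117 and 0.00974). Mup19, a pheromone carrier, had 2366, 4356, 2893, 14771 and 6565 FPKM with the conjugate and 1514, 1000.03, 1966, 1142 and 683 FPKM with vehicle, without overlap and with conjugate replicate 4 far above the other 4 of its group (2.06 ± 0.51, adjusted p = 0.0226). Mup13 and Mup3, of the same family, rose at 1.43 ± 0.41 and 0.66 ± 0.19 (adjusted p = 0.0401 and 0.0395).

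Among the 9 male-biased genes that rose, conjugate replicate 4 was the highest of its group for 6 and replicate 3 the lowest for 7, and vehicle replicate 3 was the highest of its group for 6. Of this list 3 were called without conjugate replicate 1, 4 without conjugate replicate 4 or 5, and 5 without vehicle replicate 2 or 4, with up to 13 without another library. Of 29 female-biased genes 16 were tested and 2 fell, 12.5% beside 10.4% of all genes called in either direction. Cyp17a1, a steroid hydroxylase, had 11.5, 16.3, 11.5, 7.05 and 14.8 FPKM with the conjugate and 44.4, 27.4, 35.3, 37.1 and 45.2 FPKM with vehicle, fully apart (-1.58 ± 0.23, adjusted p = 0.0027), and the other was Cd36, described above. The list had a median of -0.32. Of 20 genes of the growth hormone and IGF axis 2 rose and 1 fell, Igfbp4, another binding protein, at 0.28 ± 0.06 (adjusted p = 0.00902) beside Igfbp2 and Igfbp1. Leaving out conjugate replicate 3 brought 5 of them past the threshold. The growth hormone receptor gene Ghr stood at -0.01 ± 0.04 and Igf1, the main liver product of growth hormone action, at 0.18 ± 0.09, and neither passed (adjusted p = 0.889 and 0.199). The STAT5 element TTCNNNGAA, searched on both strands, lay in the promoter windows of 3 of 21 male-biased genes with a window (C8a, Keg1 and Moxd1). That count stood beside 9.55% of all windows and 8.16% of those of the genes tested. Keg1 was among the 9 male-biased genes that rose, and C8a and Moxd1 were not. As above, a match describes letters only.

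Detoxification genes changed in both directions. Of 37 genes of xenobiotic metabolism tested, 8 fell and 3 rose, and 6 of the 8 were glutathione S-transferases, whose copies are also too alike to separate with certainty. Gstm3 had 10.2, 16.2, 17.3, 8.59 and 14.5 FPKM with the conjugate and 30.3, 111, 63.6, 63.9 and 94.9 FPKM with vehicle, without overlap (-2.28 ± 0.34, adjusted p = 0.00317). Gsta1 had 0.645, 1.30, 3.44, 0.964 and 1.76 FPKM with the conjugate and 3.88, 39.4, 6.07, 14.6 and 17.8 FPKM with vehicle, without overlap but with vehicle replicate 2 high (-2.43 ± 0.52, adjusted p = 0.0124). Gstm2, with 31.2 to 58.9 FPKM under the conjugate and 87.5 to 131 FPKM under vehicle, fell at -1.40 ± 0.19 (adjusted p = 0.00251). Gstm1, another member, fell at -0.76 ± 0.20 and Gsta2 at -0.97 ± 0.24 (adjusted p = 0.0269 and 0.0218).

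On the other side Cyp2c54, a drug-metabolising cytochrome of a large family, had 97.5, 49.4, 83.01, 99.9 and 55.2 FPKM with the conjugate and 52.9, 13.04, 36.7, 34.7 and 6.83 FPKM with vehicle. Its groups overlapped, and vehicle replicates 2 and 5 were the lowest (1.64 ± 0.45, adjusted p = 0.0333). Ces2a, a carboxylesterase, rose at 0.61 ± 0.13, and Cyp2e1, the ethanol-oxidising cytochrome, at 0.34 ± 0.10 (adjusted p = 0.0117 and 0.0446). Ces2c, another carboxylesterase, fell, with 3.78 to 12.8 FPKM under the conjugate and 12.6 to 19.99 FPKM under vehicle (-0.94 ± 0.25, adjusted p = 0.0316). Cyp2a22, a cytochrome outside the lists, fell, with 7.04, 3.85, 6.59, 2.70 and 2.03 FPKM under the conjugate and 10.6, 13.6, 11.2, 15.2 and 22.4 FPKM under vehicle (-1.58 ± 0.34, adjusted p = 0.0132). The number called in the list was 4 without conjugate replicate 1, 5 without vehicle replicate 2, 6 without conjugate replicate 4 or vehicle replicate 5, and 7 without vehicle replicate 4.

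Of 19 antioxidant genes known as NRF2 targets, 4 fell and none rose. Srxn1, sulfiredoxin, had 8.12, 11.8, 10.4, 10.7 and 9.97 FPKM with the conjugate and 15.5, 25.6, 17.9, 18.5 and 23.5 FPKM with vehicle, without overlap (-0.91 ± 0.15, adjusted p = 0.00454). Nqo1, a quinone reductase, fell at -0.81 ± 0.17, Gpx4, which detoxifies lipid peroxides, at -0.57 ± 0.14, and Fth1, ferritin heavy chain, at -0.44 ± 0.09 (adjusted p = 0.0131, 0.0197 and 0.00951). The other 15 did not pass, and the list median was -0.14.

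Iron genes centred on hepcidin, which is induced by BMP and SMAD signalling when iron is plentiful. Hamp, its gene, had 2492, 1311, 1273, 786 and 816 FPKM in conjugate libraries 1 to 5, against 752, 167, 675, 269 and 107 FPKM in vehicle libraries 1 to 5. The lowest conjugate library, replicate 4, exceeded the highest vehicle library, replicate 1, by a narrow margin, and the log2 fold change was 2.01 ± 0.49 (adjusted p = 0.0203). The call was lost without conjugate replicate 1 or vehicle replicate 2, over a range of 1.64 to 2.34 in the 10 omissions.

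The RefSeq window of the Hamp promoter (build GRCm38.p6, chr7:30943980-30944279, minus strand) is shown because the gene rose most of the iron list and the window holds a BMP element, GGCGCC, in capitals with its first base at -109.
Hamp: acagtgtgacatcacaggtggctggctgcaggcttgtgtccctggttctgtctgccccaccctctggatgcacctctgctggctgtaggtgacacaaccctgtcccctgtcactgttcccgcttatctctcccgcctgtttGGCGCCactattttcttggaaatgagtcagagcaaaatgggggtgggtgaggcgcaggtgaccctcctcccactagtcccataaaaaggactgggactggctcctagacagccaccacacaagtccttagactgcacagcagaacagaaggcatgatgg
The element is common: 3 of 10 iron genes with a window held it, beside 13.4% of all windows and 24.4% of those of the genes tested. As above, the match describes letters only.

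Of the 17 iron genes tested, 3 rose and 4 fell, and 5 to 7 were called over the omissions. Smad7, an inhibitor that BMP signalling induces, had 4.48, 3.60, 2.41, 2.09 and 2.43 FPKM with the conjugate and 1.44, 1.92, 1.25, 1.18 and 1.11 FPKM with vehicle, without overlap (0.73 ± 0.14, adjusted p = 0.00834). Id1, another target of that signal, leaned the same way, with 23.4, 12.7, 8.61, 7.07 and 7.04 FPKM under the conjugate and 8.28, 7.28, 5.97, 2.73 and 3.70 FPKM under vehicle, but overlapped and did not pass (0.89 ± 0.30, adjusted p = 0.0685). Atoh8, a transcription factor also induced by BMP and picked out after its values were seen, had 13.2, 7.82, 9.16, 9.12 and 8.76 FPKM with the conjugate and 5.22, 4.94, 6.41, 4.07 and 4.04 FPKM with vehicle (0.83 ± 0.15, adjusted p = 0.00657). In Hamp, Smad7, Id1 and Atoh8 alike conjugate replicate 1 was the highest library. Bmp6, the ligand made by liver endothelium, stayed under the threshold for testing, with 1.67, 0.847, 0.985, 0.928 and 1.36 FPKM in conjugate libraries and 0.58, 0.578, 0.571, 0.66 and 0.486 FPKM in vehicle libraries, which did not overlap.

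On the uptake side, Tfrc, the transferrin receptor, had 3.57, 2.48, 2.34, 2.14 and 2.89 FPKM with the conjugate and 4.07, 5.52, 4.29, 7.35 and 6.84 FPKM with vehicle, without overlap (-0.83 ± 0.16, adjusted p = 0.00834). Hjv and Hfe, which feed iron sensing into hepcidin control, fell at -0.39 ± 0.07 and -0.35 ± 0.08, and Tfr2, the sensor receptor, rose at 0.24 ± 0.07 (adjusted p = 0.00657, 0.0134 and 0.0353). Red cell transcripts moved with these genes. Erythrocyte markers summed to 476, 493, 563, 620.5 and 890.2 FPKM in conjugate libraries 1 to 5, against 1369.9, 1525, 1215, 1081 and 1017 FPKM in vehicle libraries 1 to 5, without overlap. Of 8 markers 6 were tested and the globin genes Hbb-bt, Hba-a2 and Hbb-bs fell at -1.22 ± 0.34, -1.14 ± 0.34 and -1.11 ± 0.31 (adjusted p = 0.0347, 0.0449 and 0.0364), calls that held in 2, 1 and 1 of the 10 omissions. Alas2, which starts haem synthesis in red cells, was at 0.02 ± 0.10. The part of blood content in the iron results was not tested.

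Stress-responsive genes were among the falls. Gdf15, a stress hormone that acts on the hindbrain, had 3.76, 4.58, 1.70, 2.85 and 2.18 FPKM with the conjugate and 9.70, 19.2, 10.1, 10.1 and 15.5 FPKM with vehicle, without overlap (-1.79 ± 0.35, adjusted p = 0.00869). With Fgf21 and Nupr1, a chromatin protein (-0.77 ± 0.17, adjusted p = 0.0132), it made up the 3 of 17 genes of the integrated stress response that fell. That share of 17.6% stood beside 10.4% of all genes. The list median was -0.04, with 6 of the 17 above 0, so the list as a whole hardly moved. Cdkn1a, the cell cycle inhibitor p21, had 1.15, 9.43, 1.45, 0.83 and 1.47 FPKM with the conjugate and 9.26, 21.8, 7.53, 10.8 and 6.98 FPKM with vehicle. Replicate 2 was the highest library of each group and made the groups overlap (-1.91 ± 0.48, adjusted p = 0.0233). Jun, an immediate early transcription factor, had 4.10, 5.15, 3.77, 3.61 and 4.44 FPKM with the conjugate and 9.37, 14.6, 9.76, 12.1 and 11.3 FPKM with vehicle, fully apart (-1.24 ± 0.17, adjusted p = 0.00251). Egr1, Atf3 and Btg2, of the same kind, fell at -0.86 ± 0.20, -0.82 ± 0.20 and -0.76 ± 0.20, while Ier2 rose at 0.36 ± 0.07 (adjusted p = 0.0177, 0.022, 0.0285 and 0.0102), so that 4 of 16 immediate early genes fell and 1 rose, with 3 called without conjugate replicate 1 and 2 without vehicle replicate 2. Atf3 had 0.368 to 0.849 FPKM with the conjugate and 0.867 to 2.51 FPKM with vehicle. No conjugate library of Atf3 reached 1 FPKM, and it passed the filter only through vehicle libraries, so passing depended on the difference called.

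Of 24 genes of the unfolded protein response 2 rose, Ern1, its sensor kinase, at 0.45 ± 0.10 and Xbp1, its transcription factor, at 0.36 ± 0.10, and 2 fell, Manf, a secreted chaperone, at -0.64 ± 0.18 and Ssr3, a translocon subunit, at -0.27 ± 0.07 (adjusted p between 0.0139 and 0.0373). The list leaned lower, with a negative value for 20 of the 24 and a median log2 fold change of -0.16, so the 2 rises went against it. Between 1 and 6 passed over the omissions, with 1 without conjugate replicate 1 or vehicle replicate 2 and 2 without conjugate replicate 3, 4 or 5 or vehicle replicate 3 or 4. Among 12 cell cycle genes tested, Ccnd1, cyclin D1, fell at -0.64 ± 0.18 and Mcm2, a replication helicase subunit, at -0.51 ± 0.12 beside Cdkn1a (adjusted p = 0.0399 and 0.0147), and 1 of the 3 passed without conjugate replicate 1, 3 or 4 or vehicle replicate 2. Tk1, thymidine kinase, went the other way, with 25.3, 11.5, 20.7, 14.2 and 16.6 FPKM under the conjugate and 9.92, 7.38, 8.15, 9.04 and 7.18 FPKM under vehicle (0.96 ± 0.18, adjusted p = 0.00657). Mcm2 lay near the filter level, at 0.684 to 0.815 FPKM with the conjugate and 0.927 to 2.36 FPKM with vehicle. No conjugate library of Mcm2 reached 1 FPKM, and it passed the filter only through vehicle libraries, so passing depended on the difference called.

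Ribosome biogenesis leaned upward by small steps. Of 33 genes tested, 32 had a positive value, 6 rose, none fell and the median log2 fold change was 0.15. Nop16, a nucleolar assembly factor, had 14.1, 13.6, 12.004, 13.4 and 13.4 FPKM with the conjugate and 10.98, 10.7, 9.79, 9.58 and 10.6 FPKM with vehicle, without overlap (0.33 ± 0.05, adjusted p = 0.00326). Fbl, the rRNA methyltransferase fibrillarin, rose at 0.30 ± 0.05 and Npm1, nucleophosmin, at 0.26 ± 0.07 (adjusted p = 0.00458 and 0.026). Nolc1 and Nop2, further nucleolar proteins, rose at 0.37 ± 0.09 and 0.39 ± 0.11 (adjusted p = 0.0203 and 0.0403). The list had 3 called genes without conjugate replicate 1 and 2 without vehicle replicate 2.

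Tubb2a, a beta tubulin, had one of the widest falls, with 8.39, 45.3, 20.1, 16.01 and 24.3 FPKM in conjugate libraries 1 to 5, against 55.7, 151, 105, 119 and 129 FPKM in vehicle libraries 1 to 5. The highest conjugate library lay below the lowest vehicle library (-2.36 ± 0.35, adjusted p = 0.00296), and the call held in all 10 omissions. Ly6d, a GPI-anchored surface protein, had 0.959, 2.11, 2.31, 1.02 and 1.69 FPKM with the conjugate and 4.17, 22.95, 6.94, 10.4 and 25.7 FPKM with vehicle, without overlap (-2.28 ± 0.54, adjusted p = 0.0184). H2-Q1, a non-classical MHC gene of a family of similar copies, fell at -1.70 ± 0.36 (adjusted p = 0.0124). A group of 4 genes of membrane-binding and lectin proteins, picked out after their values were seen, fell alongside. Anxa2, annexin A2, had 7.27, 16.04, 13.3, 7.70 and 13.3 FPKM with the conjugate and 18.9, 40.7, 34.9, 34.9 and 51.4 FPKM with vehicle, and its partner S100a10 had 55.2, 125, 70.1, 94.4 and 97.3 FPKM with the conjugate and 149.6, 182, 176, 169 and 193 FPKM with vehicle. Both stood fully apart (-1.56 ± 0.31 and -1.02 ± 0.18, adjusted p = 0.00872 and 0.00584). Lgals1, galectin-1, fell at -1.40 ± 0.27 and Anxa5, annexin A5, at -1.04 ± 0.26 (adjusted p = 0.00834 and 0.0236). Aqp8, a water channel of hepatocytes, fell at -1.42 ± 0.27 (adjusted p = 0.00834), with conjugate replicate 2 inside the vehicle range.

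Among rises outside the metabolic lists, Enho, which encodes the peptide adropin, had 6.33, 3.12, 9.23, 5.63 and 6.08 FPKM with the conjugate and 3.44, 2.52, 1.84, 2.14 and 1.79 FPKM with vehicle, overlapping through conjugate replicate 2 (1.04 ± 0.23, adjusted p = 0.0133). Foxq1, a forkhead factor, had 2.17, 6.25, 12.3, 4.65 and 7.77 FPKM with the conjugate and 2.44, 1.61, 3.15, 1.56 and 1.01 FPKM with vehicle. It passed at 1.26 ± 0.38 (adjusted p = 0.0455) but in 1 of the 10 omissions. The acute phase and complement list had 4 rises and no fall among 39 genes tested, 10.3% called beside 10.4% of all genes in either direction. C1ra, a complement protease, rose at 0.37 ± 0.07 (adjusted p = 0.0097). Crp, C-reactive protein, rose at 0.25 ± 0.07 and F10, coagulation factor X, at 0.20 ± 0.06 beside C8b (adjusted p = 0.0356 and 0.0392). Of the list, 2 were called without conjugate replicate 1 or 4 or vehicle replicate 2 or 4, and 7 without vehicle replicate 1. One vehicle library stood apart in this list. Saa1, serum amyloid A1, had 50.4, 46.2, 74.4, 113 and 53.4 FPKM in conjugate libraries 1 to 5, against 91.7, 224, 107, 166 and 6158 FPKM in vehicle libraries 1 to 5, with vehicle replicate 5 above all others. Saa2, its near copy, had 20.9 to 53.04 FPKM with the conjugate and 57.3 to 5546 FPKM with vehicle, without overlap. Vehicle replicates 1 to 4 had 57.3, 154, 71.5 and 97.1 FPKM of Saa2, so they too lay above every conjugate library. Hp, haptoglobin, reached 5464 FPKM in vehicle replicate 5. None of the 3 passed (adjusted p = 0.111, 0.0693 and 0.221). In the Gipr line Saa2 was called, at -2.03 ± 0.51 (adjusted p = 0.0406 in limma), and Saa1 and Hp were not.

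Zonal genes mark the position of a hepatocyte between portal and central veins. The shares called were 13.6% of the pericentral and 14.3% of the periportal list, beside 10.4% of all genes. Of 22 pericentral genes 1 rose and 2 fell, with Rhbg, an ammonia transporter at the central vein, at 0.869 to 1.84 FPKM with the conjugate and 3.14 to 4.46 FPKM with vehicle (-0.97 ± 0.17, adjusted p = 0.00552). Lect2, a secreted chemotactic factor, fell at -0.38 ± 0.10 (adjusted p = 0.0308) and Cyp2e1 was the rise. Of 21 periportal genes 1 rose, Hamp, and 2 fell, Hsd17b13, a droplet enzyme, at -0.40 ± 0.12 and Rida, a deaminase of reactive imines, at -0.23 ± 0.07 (adjusted p = 0.0412 and 0.0354). A single call was left in the pericentral list without conjugate replicate 1, 3, 4 or 5 or vehicle replicate 2, and 5 genes passed without vehicle replicate 1. In the periportal list none passed without conjugate replicate 1 or vehicle replicate 2, and 1 passed without conjugate replicate 4 or vehicle replicate 5.

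Of 31 proteasome subunits 2 fell, Psmd8 at -0.28 ± 0.07 and Psmd14 at -0.24 ± 0.07, and of 29 lysosome and autophagy genes 2 fell, Ctsd at -0.40 ± 0.11 and Lamp2, a lysosomal membrane protein, at -0.16 ± 0.04 (adjusted p = 0.0203, 0.0412, 0.0308 and 0.0339). These shares of 6.45% and 6.90% stand beside 10.4% for all genes, and neither list kept a call without conjugate replicate 1 or vehicle replicate 2. Among 26 hepatokines and other secreted regulators 3 rose, Hamp, Enho and Inhba, and 3 fell, Gdf15, Fgf21 and Lect2, and 3 were called without vehicle replicate 2. Inhba, an activin subunit, rose at 0.41 ± 0.10 (adjusted p = 0.018), near the filter level of 1 FPKM. It had 0.94 to 1.64 FPKM with the conjugate and 0.41 to 0.90 FPKM with vehicle. No vehicle library reached 1 FPKM, so passing the filter depended on the difference called. It was tested in 6 of the 10 omissions and passed in 5. Of the remaining cell types, 11 Kupffer cell markers summed to 92.7 to 176 FPKM with the conjugate and 96.8 to 290.2 FPKM with vehicle. None of them passed in limma (1 with an unadjusted p under 0.05, beside 2931 of 10858 genes tested). All 11 had a negative value, with a median log2 fold change of -0.40, beside -0.05 in the Gipr line. Markers of liver endothelium, with 1 rise of 9 tested (11.1% beside 10.4% of all genes), summed to 54.8 to 84.8 FPKM with the conjugate and 48.4 to 77.9 FPKM with vehicle. Both overlapped.

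Liver of the Gipr floxed line, with 5 conjugate and 5 vehicle libraries of its own, gave a comparison that shared no library with this one. There 486 of 11201 genes tested were called, 4.34%. Of the 1109 genes called in the Glp1r line and tested in the Gipr line, 1023 had the same sign there, 92.2%. The same share over all 10640 genes tested in both lines was not computed. In the Gipr line 216 of them were called too, which is 19.5% of the 1109 and 45.2% of the 478 genes called there and tested here, 56 higher and 160 lower in both and none opposite. The difference of the effects, tested over 30 liver libraries with an interaction contrast, passed for 0 of 11419 genes in limma (smallest adjusted p 0.782, 657 with an unadjusted p under 0.05).

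Among the genes described above, Hsd3b5 had a log2 fold change of 4.51 ± 0.67 in the Gipr line, Serpina1e 3.58 ± 0.52, Apoa4 -2.53 ± 0.32, Tubb2a -2.33 ± 0.35 and Cyp8b1 -1.82 ± 0.22, all called there. Of the sterol enzymes 1 was called in the Gipr line, Hmgcs1, at -1.17 ± 0.24, while Sqle was at -0.89 ± 0.53 and Fdps at -0.44 ± 0.28. Over the 18 sterol enzymes the median was -0.97 in the Glp1r line and -0.30 in the Gipr line. For 17 of 18 the Glp1r line had the lower value, with a median difference of -0.57, and 3 differences had an unadjusted p under 0.05, but none passed after adjustment over all genes. Hamp was at 1.02 ± 0.30 in the Gipr line and not called, and the 2 lines differed by 0.99 (unadjusted p = 0.114). Pltp was at -0.47 ± 0.27, a difference of -0.95 (unadjusted p = 0.0177). Of the 33 ribosome biogenesis genes none was called in the Gipr line, where the list median was 0.03 beside 0.15 in the Glp1r line.

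**Figure D5:**
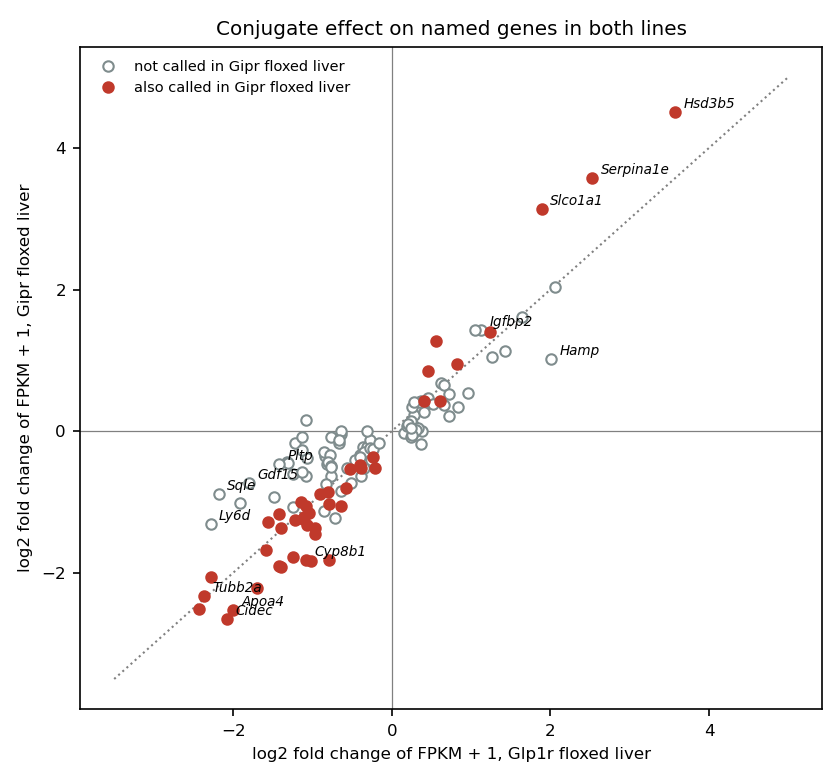
Log2 fold change of FPKM + 1, conjugate over vehicle, of 134 named genes called in Glp1r floxed liver, with the Glp1r line on the horizontal axis and the Gipr line on the vertical axis. Filled points were also called in the Gipr line (44 of 134), the dotted line marks equal values, and 126 of 134 points have the same sign in both lines. These genes are a part of the 1109 called in the Glp1r line and tested in both.

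Livers of Glp1rWnt1-/- mice given vehicle, compared with the same vehicle libraries in their own contrast, are set beside these values as levels without a test, since the vehicle group is shared. Sqle averaged 3.51 ± 3.17 FPKM in floxed liver with the conjugate, 9.28 ± 7.04 FPKM in knockout liver with vehicle and 16.8 ± 6.41 FPKM in floxed liver with vehicle (SD, n = 5 each). Hmgcs1 averaged 37.7 ± 19.6, 54.3 ± 20.4 and 93.6 ± 19.3 FPKM in the same order. Hsd3b5 averaged 25.9 ± 17.6, 27.99 ± 21.2 and 1.27 ± 1.79 FPKM, so the knockout lay near the conjugate group. The male-biased list summed to 18201 to 55103 FPKM with the conjugate, 26831 to 66473 FPKM in knockout liver and 12316 to 20750 FPKM in floxed liver with vehicle. Hamp averaged 1336 ± 691, 586 ± 229 and 394 ± 298 FPKM, and Igfbp2 213 ± 37.2, 116 ± 15.7 and 99.3 ± 31.3 FPKM, so for these the knockout lay nearer to vehicle. Apoa4 averaged 452 ± 226, 1353 ± 629 and 1730.1 ± 666 FPKM, and Tubb2a 22.8 ± 13.9, 65.6 ± 16.8 and 112 ± 35.6 FPKM. For the 18 sterol enzymes the knockout mean was below the vehicle mean in 18 and above the conjugate mean in 17.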

How the data were processed

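PolyA RNA of liver was sequenced with a stranded library kit, per the labels' protocols. The deposited table holds FPKM values (fragments scaled to transcript length and library total) for each gene and library, which the authors made with RSEM per the submitters' processing notes; its version, the aligner and the genome build are not stated in the labels or headers. Counts were not used here.

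Libraries were grouped by their labels. Genes with at least 1 FPKM in at least 5 of the 15 libraries of the table were tested on log2(FPKM + 1), with limma 3.58.1 in R 4.3.3 (empirical Bayes with a mean-variance trend), in 1 model over the 3 groups of the table. Genes whose p, adjusted by Benjamini-Hochberg over all genes tested, lay under 0.05 were called, and fold changes on this scale understate the change of low genes. The same model was fitted to the Gipr line, and the lines were compared by an interaction contrast over 30 libraries. Library measures were compared by exact permutation over 252 assignments, whose smallest p is 0.00794. Values after ± are standard errors for log2 fold changes and SD for means.

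Depth was estimated from the smallest FPKM steps of 6496 genes with annotated lengths, and it limits low genes most. On simulated data with 200 changed genes among 10840, the model recovered 84% of those changed 2-fold and 74% of those changed 1.5-fold. Of its calls there, 5.39% were unchanged genes. These values hold for the simulated data only. The share of false calls in the real libraries, where depth differed along with the treatment, was not tested.

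Named genes are the 12 largest rises and 12 largest falls with a group mean of at least 5 FPKM, the 5 strongest called members, or fewer, of every list, and all listed sterol enzymes. Some genes that belong to these lists are not reported here and were left out of the list counts, but not of the model. Other list members, and Anxa2, Anxa5, S100a10, Lgals1, Atoh8, Aqp8, Bhmt, Bmp6, Saa1, Saa2 and Hp, were chosen after their values were seen. The gene lists, their members and the comparisons were chosen with earlier results of these data known. Promoter windows came from RefSeq, build GRCm38.p6, matched by symbol, and symbols of the table were found in the reference names for 91.1%. Alternatives were another pseudocount, filter, scaling, fit, a replicate block, a depth term and leaving out each library.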

Additional observations from a re-analysis of the deposited data

Results flagged for a closer look

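In 21 of 314 groups of 5 libraries (6.69%, where chance gives about 1 in 20) one library stood far from the other 4 for a gene or measure described above. Conjugate replicate 2 was the highest of its group for Cdkn1a (9.43 FPKM), Insig2 (110.4 FPKM), Acss2 (50.8 FPKM), Mogat1 (4.51 FPKM) and Aqp8 (117 FPKM), all of which fell, so that library lay nearest to vehicle for them. It also had the lowest mitochondrial share, at 10.5%. Conjugate replicate 1 was highest for Nags (33.5 FPKM), Atoh8 (13.2 FPKM) and Igf1 (281 FPKM). Conjugate replicate 3 was highest for Atf3 (0.849 FPKM) and Srebf1 (107 FPKM) and lowest for Cyp2d9 (452 FPKM). Conjugate replicate 4 was highest for Saa2 (53.0 FPKM in the conjugate group), and conjugate replicate 5 for Hbb-bt (53.9 FPKM).

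On the vehicle side, replicate 2 was highest for Cdkn1a (21.8 FPKM), Mvd (15.3 FPKM) and Acly (95.5 FPKM). Vehicle replicate 5 was highest for the acute phase genes Saa1 (6158 FPKM), Saa2 (5546 FPKM) and Hp (5464 FPKM) and for Apoc2 (800.5 FPKM).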

How the results depend on the processing

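The 135 called genes named in the text kept their direction under every alternative in which they were tested except the depth term, which turned Foxq1 to -0.17 and C1ra to -0.021. Calls depended more on the setting. Without the filter on low values 617 genes passed in place of 1126 (326 higher, 291 lower), with array weights 1676 (893 higher, 783 lower), and common sum scaling left 336 higher. With the estimated depth in the model, or with a 1.5-fold minimum, 0 genes passed in limma in either direction (1297 and 81 with an unadjusted p under 0.05). The depth term raised the median standard error 3.12 times, and 1008 of the 1126 genes kept their sign. Leaving out each library gave 479 to 1395 calls, 265 to 783 higher and 214 to 612 lower, and 73 to 124 of the 135 named calls; the lowest came without vehicle replicate 2. In the Gipr line the same omissions gave 159 to 1039 calls, with 159 without its conjugate replicate 4. The share of summed FPKM from the 10 largest genes, conjugate minus vehicle, ran from -1.43 to -0.25 percentage points, with -1.43 without vehicle replicate 5.

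Replicate numbers gave no clear pairing of conjugate with vehicle samples: same-numbered libraries had deviations correlated at 0.051, 0.154, -0.008, -0.080 and -0.079, and 1 conjugate library correlated best with its own number. Knockout libraries, which the replicate block also covers, were not compared in this way. With the replicate block 1342 genes passed (679 higher, 663 lower). Standard errors of the genes called without the block were then 0.93 times as large by their median. Depth of 31.7 to 54.8 M fragments limits calls among genes near 1 FPKM.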
